A study of Vitis vinifera with 2 samples.

Results

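In the peak list of a ChIP-seq experiment on the grapevine transcription factor VlbZIP30, some promoter peaks lay in the promoter of a gene that was not the closest gene. The list gives each peak 2 gene names that are assigned separately, the gene of the feature that holds the peak centre and the gene with the nearest transcription start site (TSS). Peaks of the promoter class for which these names differed were taken as members. They numbered 419 of 12387 promoter peaks, or 3.38% (95% Wilson interval 3.08 to 3.72%), and 0.852% of the 49173 peaks in all. They are called farther-gene promoter peaks below, and the 2 genes are called the annotated gene and the nearest gene. Members were picked by position and name alone, so the peak score and peak length took no part in the choice.

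The chromatin came from the uppermost leaves of Vitis vinifera aged 4 months that overexpressed VlbZIP30 fused to 3 copies of the FLAG tag under the CaMV 35S promoter, a viral promoter active in most plant tissues. All plants had gone without water for 20 days. There was 1 library precipitated with anti-FLAG M2 antibody and 1 control library from the same kind of plants, which its title calls input and its antibody field calls IgG. The libraries used here had no replicate, no watered plants and no plants without the tag, so an effect of drought or of the tagged protein alone could not be measured, and 35S-driven protein may occupy sites that the plant's own protein does not. How many transgenic lines or plants were pooled is not given in the sources used here.

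Basic leucine zipper (bZIP) proteins bind DNA as dimers, and the plant family mostly recognises short elements built around an ACGT core, among them the G-box and the abscisic acid response element of drought-induced promoters. Plant genes often lie so close together that a stretch of DNA serves as the promoter of more than 1 gene. In a head-to-head (divergent) pair the genes run away from each other and share the DNA between their TSSs. In a tandem pair both genes run the same way, and the promoter of the downstream gene can overlap the body of the upstream gene. A peak in such DNA cannot be given to a gene by position alone.

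The promoter class of the list covered peak centres from -1000 to 100 bp around a TSS, judged from promoter peaks whose annotated gene was also the nearest. Of the 12201 peaks centred in that window of their nearest TSS, 0 had any other class, so the promoter class came before all others. The 419 members therefore fell into 2 kinds. In 233 (55.6%, 50.8 to 60.3%) the centre lay in the promoter window of both genes. In the other 186 (44.4%, 39.7 to 49.2%) the centre lay more than 100 bp past the nearest TSS on the gene side, at most 1000 bp from it, and in the promoter window of its neighbour only.

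Member centres lay on both sides of the nearest TSS. The signed distance ran from -775 to 960 bp with a median of 48 bp (quartiles -132 and 273.5 bp), where positive values are on the gene side. The absolute distance had a median of 184 bp, against 174 bp for the 11968 other promoter peaks, whose annotated gene was the nearest. Within 200 bp of the nearest TSS lay 224 members (53.5%) and within 500 bp lay 357 (85.2%). The gene side held 239 members (57.0%, 52.3 to 61.7%), against 18.4% (17.7 to 19.1%) of the other promoter peaks. That contrast follows in part from the rule, since another promoter peak cannot be centred beyond 100 bp on the gene side. The nearest TSS was covered by the peak itself in 326 members (77.8%, 73.6 to 81.5%), and in 73.6% (72.8 to 74.4%) of the other promoter peaks. Among the 186 centred inside the nearest gene, 116 (62.4%) still reached back over its TSS.

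**Figure D1:**
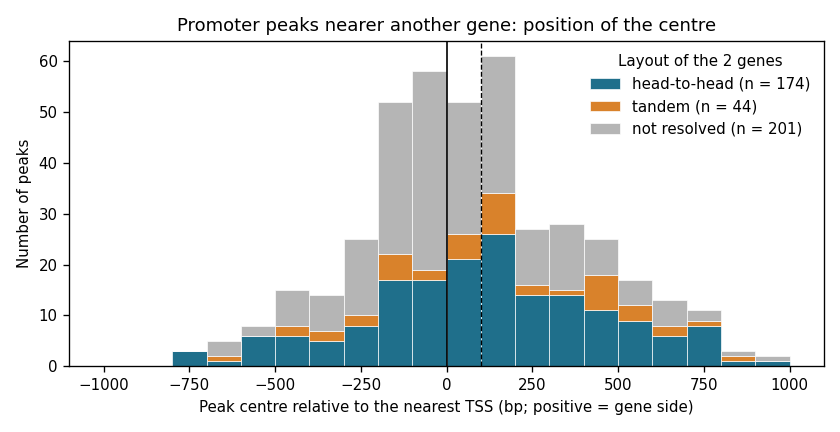
Number of farther-gene promoter peaks in 100 bp steps of the signed distance (bp) from the peak centre to the nearest TSS, stacked by the layout of the 2 genes; the solid line is the TSS and the dashed line, at 100 bp, ends the nearest gene's own promoter window. The highest columns lie within 200 bp of the TSS, and 186 of the 419 centres lie to the right of the dashed line.

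The layout of the genes was worked out from the signed distances. A gene that was nearest to 2 or more peaks has 1 TSS position and 1 strand that fit all of them. Both genes had such a TSS in 57 members. Of these, 45 were head-to-head pairs (78.9%, 66.7 to 87.5%), 12 were tandem (21.1%, 12.5 to 33.3%) and 0 were convergent. In a convergent pair the genes run towards each other. The choice of members almost excludes that layout: a centre upstream of the annotated TSS lies nearer to it than to a facing TSS beyond it. Further rules of the list settled more members: a promoter peak must lie in the window of its gene, a peak in a gene body must lie downstream of its TSS, a window can hold no peak of another class, and no TSS can lie nearer to a peak than the distance listed for it. When all but 1 peak of each of 12847 genes with a known strand was hidden, these rules gave back the right strand for 4963, a wrong strand for 0 and left both strands possible for 7884.

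With all rules, 218 members were resolved, 174 as head-to-head (79.8%, 74.0 to 84.6%), 44 as tandem and 0 as convergent, the layout almost excluded by the choice of members. The share among all 419 members can lie anywhere from 41.5% to 89.5%, depending on the members left unresolved. Members without a layout were centred upstream of the nearest TSS in 51.2% of cases, against 36.2% of the head-to-head and 31.8% of the tandem members. Some gene pairs carried more than 1 member. Counted once per gene pair, 147 of 191 resolved pairs were head-to-head (77.0%, 70.5 to 82.4%). The genes were mostly next to each other by name as well. In 352 members (84.0%, 80.2 to 87.2%) the identifiers shared a prefix and their numbers were 10 apart, the step between consecutive genes in this naming scheme, and in 12 members they were 20 apart. A further 53 members named at least 1 gene with an ENSRNA identifier, 28 as the annotated gene, 33 as the nearest gene and 8 as both.

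Both TSSs could be placed at a single position in 176 members. Their TSSs lay a median of 558 bp apart (quartiles 243 and 868 bp), with 469 bp for the 137 head-to-head members and 1 to 1651 bp as their range. In the 57 members placed from 2 or more peaks per gene the median was 526 bp. All 176 centres lay upstream of the annotated gene's TSS, at -999 to -90 bp with a median of -706.5 bp. The window allows no centre farther than 1000 bp upstream and the nearest gene must be nearer, so this range is largely set by the rule.

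Centres at head-to-head pairs lay both between the TSSs and past the nearest TSS. Of the 137 head-to-head members, 45 (32.8%, 25.5 to 41.1%) were centred between the TSSs and 92 past the nearest TSS, inside its gene. Of those 92, 47 belonged to 25 gene pairs that carry 2 members with crossed names, described further on. Without these pairs, an alternative added after seeing the data, 42 of 87 (48.3%, 38.1 to 58.6%) were centred between the TSSs and 45 past the nearest. With TSSs 200 bp apart or less, 0 of 32 centres lay between them and 29 lay more than 100 bp inside the nearest gene. With over 200 to 500 bp the centre lay between in 9 of 39, with over 500 to 1000 bp in 19 of 49, and with more than 1000 bp in 17 of 17. In the tandem pairs, 28 of 39 centres lay between the TSSs, which there means downstream of the start of the upstream gene and in front of the downstream gene. The rule shapes these counts: a centre between 2 close TSSs is in both windows and becomes a member only if it was annotated to the farther gene. With TSSs more than 1000 bp apart, a centre past the nearest TSS is outside the annotated gene's window, so 17 of 17 was fixed in advance. The wider the gap, the less of that window is left past the nearest TSS, so the rise with the gap follows in part from the rule.

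Peaks that reached over both TSSs were long and had high scores. Of the 176 members with both TSSs placed, 68 (38.6%, 31.8 to 46.0%) spanned both. These had a median length of 1497 bp and a median score of 22.1 (lowest 5.48, highest 102). The 108 that did not span both had medians of 423.5 bp and 5.48 (lowest 1.75, highest 68.1). Length alone makes a peak more likely to span 2 points, and score and length go together in this list, so the part of length in the score difference was not tested. In the head-to-head pairs the spanning share was 19 of 32 (59.4%) with TSSs up to 200 bp apart, 18 of 39 over 200 to 500 bp, 14 of 49 (28.6%) over 500 to 1000 bp and 5 of 17 beyond. The median scores in these steps were 9.56, 13.0, 10.3 and 20.0, with no steady order.

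**Figure D2:**
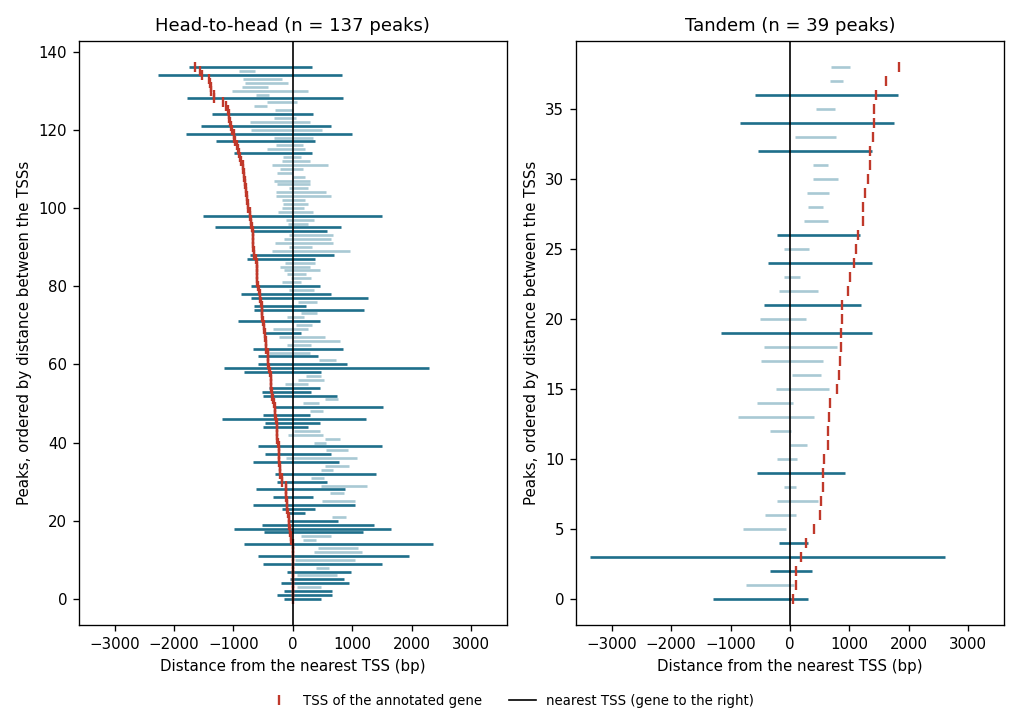
Peaks (horizontal bars, start to end) of the 176 members with both TSSs placed, which belong to 151 gene pairs, drawn from the nearest TSS (black line, its gene running to the right) with the annotated gene's TSS as a red tick; rows are ordered by the distance between the TSSs, and dark bars span both. At head-to-head pairs (left, 137 peaks) the red tick lies to the left of the black line and bars with close TSSs lie mostly over the nearest gene; at tandem pairs (right, 39 peaks) it lies to the right.

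The shortest recorded distance, 1 bp, was shared by 15 members at 12 gene pairs, all head-to-head. Their centres all lay on the gene side of the nearest TSS, as TSSs 1 bp apart leave no room between them. Of the 15 members, 9 spanned both TSSs, and the scores of all 15 ran from 4.53 to 48.2 with a median of 17.8. The longest distance between head-to-head TSSs, 1651 bp, was found at a peak on chromosome 1 (9038821 to 9040891) with a score of 26.0 that covered both. Among tandem members the shortest was 50 bp, on chromosome 16 (17247060 to 17248648, score 19.5), and the longest was 1830 bp, on chromosome 14 (28493360 to 28493686), where a peak of 327 bp scored 1.75 and touched neither TSS. Coordinates are those of the authors' list, whose genome build is not given in the sources used here.

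The scores of farther-gene promoter peaks could not be set apart from those of other promoter peaks. Their median score was 13.9 (95% order-statistic interval 11.2 to 16.4, n = 419 peaks), against 12.7 (12.3 to 13.0, n = 11968), with quartiles of 5.76 and 27.0 against 5.98 and 25.4. The median of the other promoter peaks lies inside the members' interval. Scores at or above the upper quartile border of the whole list, 18.5, were held by 169 members (40.3%, 35.7 to 45.1%). The background is 25.5% of all peaks and 36.2% of the other promoter peaks. The median length of the members was 749 bp (674 to 835 bp) against 622 bp. This excess was not found throughout: the difference was -26.5 bp in the lowest-scoring quartile of the list and -25 bp among peaks under 1 kb. In the whole list, 13 members (3.10%) were 3 kb or more, against 1.55% of the other promoter peaks. With the other promoter peaks weighted to the members' lengths, the score difference changed from 1.11 to -0.44.

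Median scores differed with the position of the centre, with intervals that overlapped. The 180 members centred at or upstream of the nearest TSS had a median of 16.1 (13.6 to 19.2). The 53 members up to 100 bp past it had a median of 10.5 (7.02 to 19.2), and the 186 farther inside had 10.2 (7.56 to 15.7). Of those 186, the 144 alone at their gene pair had a median of 15.7 (9.92 to 18.5), close to that of the upstream members. The 38 that belonged to the pairs with crossed names had 5.48, so the lower median inside depends on this mix. In the window from 200 to 500 bp upstream, the 54 members had a median of 19.4, against 14.8 for the 2910 other promoter peaks there and 20.6 for those peaks weighted to the members' lengths. From 200 bp upstream to the TSS the members' median was 15.2 (n = 109), and the other promoter peaks had 13.0, or 15.1 when weighted by length. On the upstream side the members thus scored above other promoter peaks at the same distance, and close to those of like length.

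Inside the nearest gene, the members could be set against peaks that were not in any promoter. From over 100 to 1000 bp past the nearest TSS lay 5659 peaks, of which 186 (3.29%, 2.85 to 3.78%) were members and 5473 were in exons (2883), introns (1723) or transcription termination sites (867). The members' median score was 10.2 (7.56 to 15.7), against 6.49 (6.42 to 7.02) for the other classes. At or above the upper quartile border were 36.6% (29.98 to 43.7%) of the members and 24.8% (23.7 to 26.0%) of the other classes. The members' median was the higher on 13 of the 17 numbered chromosomes with 3 or more such members. Their median length was 775.5 bp against 580 bp, and the difference of 3.70 between the medians was 1.51 with the other classes weighted to the members' lengths, 2.08 when weighted to their distances, and 0.45 among peaks under 1 kb. For the 144 members alone at their gene pair it was 9.17 without weighting, and their median length was 904.5 bp. From over 100 to 200 bp the members had a median of 13.9 (n = 61) and the other classes 9.85, or 11.3 weighted by length. From over 200 to 500 bp the medians were 11.2 (n = 79) and 9.85, and the weighted value was also 11.2. From over 500 to 1000 bp they were 5.24 (n = 46) and 4.08, with 4.996 weighted. The weighted difference was thus largest in the window next to the promoter border, where the members' quartiles were 4.996 and 22.2. No intervals were computed for these windows, so a difference between them was not tested.

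**Figure D3:**
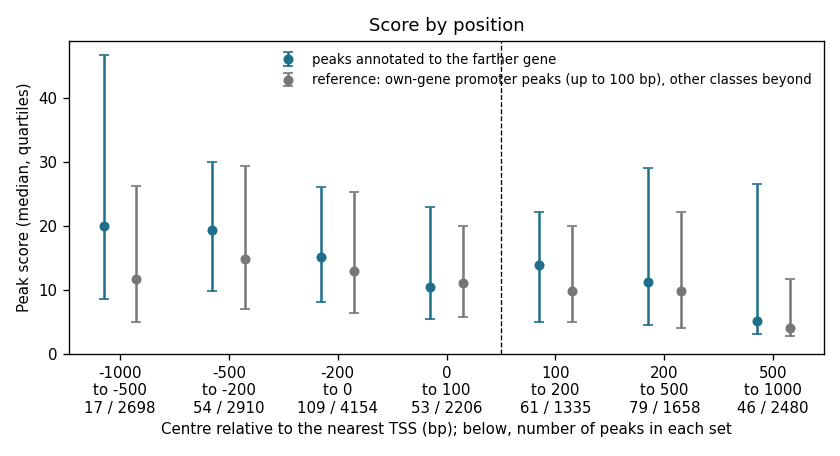
Peak score (points, medians; bars, quartiles) by position of the centre relative to the nearest TSS in bp, for the farther-gene promoter peaks (blue) and for reference peaks (grey): promoter peaks of the nearest gene left of the dashed line, peaks of the other classes right of it; the number of peaks in each set stands under each window. Members lie above the reference in every window except 0 to 100 bp, where the medians are 10.5 and 11.1, and all quartile ranges overlap.

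Over all members, median scores by layout lay close together, with wide quartiles. Head-to-head members had a median of 13.6 (quartiles 5.48 and 25.9, n = 174), tandem members 14.0 (3.97 and 28.4, n = 44) and unresolved members 14.3 (6.99 and 27.1). The head-to-head group held the 50 peaks of the pairs with crossed names, whose median was 5.48. Their difference from the 120 head-to-head members alone at their gene pair was -13.0. The closeness of the layouts thus depends on this mix. Median lengths were 783, 703 and 745 bp. Members with an ENSRNA gene had a median score of 15.0 (n = 53), against 13.7 (n = 366) for pairs of VIT genes. An ENSRNA gene was named at 12.6% (9.80 to 16.2%) of the members and at 1.70% (1.48 to 1.94%) of the other promoter peaks, but a member names 2 genes and another promoter peak only 1. Counted by 1 name, it was the annotated gene at 28 of the 419 members and the nearest gene at 33. Both are a larger share than the 203 of 11968 other promoter peaks.

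There were 25 gene pairs that carried 2 members, each nearer to 1 of the genes and annotated to the other. They are called crossed pairs here. All 25 pairs were head-to-head, a layout that this crossed naming almost requires. In 22 of them both centres lay on the gene side of their nearest TSS. At 3 pairs a centre lay between the TSSs, and at 9 of the 25 a peak spanned both TSSs. The DNA between the peaks measured 200 to 643 bp (median 348 bp) and held 0 further peaks, and the TSSs lay 1 to 845 bp apart (median 363 bp). An ENSRNA gene belonged to 4 of these pairs.

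The peaks of crossed pairs scored below members that were alone at their gene pair. Their median was 5.48 (95% order-statistic interval 4.53 to 7.56, n = 50 peaks), with a range of 1.75 to 35.1, against 16.4 (13.6 to 18.4, n = 365) for members alone at their pair. Only 7 of the 50 (14.0%, 6.95 to 26.2%) reached the upper quartile border, against 44.4% (39.4 to 49.5%) of the others. They were also shorter, with a median of 494.5 bp against 805 bp. The difference of -10.9 shrank to -3.32 with the lone members weighted to their lengths. Lone members with another peak within 1 kb had a median of 17.8 (n = 199).

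Within a crossed pair, the higher listed score was 1.10 to 9.74 times the lower (median 2.18 times). The scale of the score is not named, so these ratios describe the listed values only. No ratios of other neighbouring peaks were computed beside them. The highest pair lay on chromosome 18, where peaks from 14378613 to 14379297 and from 14379786 to 14380454 scored 35.1 and 20.6, with TSSs recorded 1 bp apart. It was the sole pair with both scores above the upper quartile border, and in 19 pairs neither was. The pair with the largest ratio lay on chromosome 5, where a peak of 1498 bp (5346494 to 5347991) scored 17.1 and its partner (5348243 to 5348543) 1.75, with TSSs 410 bp apart. At 2 further gene pairs, on chromosome 16 and on the sequence named Un, both member peaks were centred inside the same gene and were annotated to the same neighbour.

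**Figure D4:**
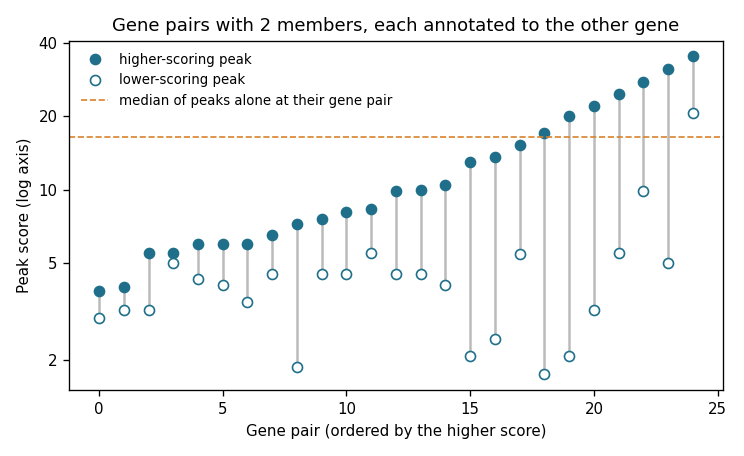
Scores (log axis) of the higher (filled) and lower (open) peak at the 25 crossed pairs, which carry 2 members each annotated to the other's nearest gene, ordered by the higher score; the dashed line is the median of members alone at their gene pair, 16.4. Of the 50 points, most lie under the line, and 1 pair has both above it.

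The gene that a peak is given to depends on which of the 2 names is read. The members named 416 annotated genes and 417 nearest genes, 781 different genes in all, of which 52 took both roles. Of the annotated genes, 163 (39.2%, 34.6 to 44.0%) were nearest to no peak, so a target list built on the nearest gene leaves them out, and 125 of these appear in the list through promoter annotations only. Conversely, 233 nearest genes had a member centred in their own promoter window, and 220 of them (94.4%, 90.7 to 96.7%) had no promoter annotation of their own, so a list built on promoter annotation leaves those out. By the rule the member carries the other gene's name, so these 220 are genes without a second promoter peak. Few genes of the list had 1, as the 11968 other promoter peaks named 11528 genes. A background share was not computed, here or for the 37 annotated genes below. Of the 11907 genes with a promoter annotation, 379 had it through members alone. Among the annotated genes, 37 (8.89%) also had a promoter peak nearest to themselves, and 203 (48.8%, 44.0 to 53.6%) had a peak in an exon, an intron or at the end of the gene. The background for such a peak was 58.8% (6774 of 11528) of the genes of other promoter peaks and 38.8% of the members' nearest genes.

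Centres in the promoter windows of more than 1 gene were not limited to the members. Among the other promoter peaks, at least 59 were also centred in the promoter window of another gene with a TSS known from 2 or more peaks. They had a median score of 13.6 and a median length of 894 bp. Genes without such a TSS could not be searched, so 59 is a lower limit. Members made up 0.843% (3 of 356) of the promoter peaks on chromosome 10 and 4.93% (21 of 426) on chromosome 16, the ends of the range over the numbered chromosomes, with intervals of 0.287 to 2.45% and 3.25 to 7.42%.

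The 10 members with the highest scores ran from 64.0 to 117 and from 1278 to 5979 bp in length. All 10 covered the nearest TSS, 4 spanned both TSSs among the 5 with both placed, and 2 were head-to-head, 4 tandem and 4 unresolved. Of all members, 1 was among the 100 highest-scoring peaks of the list and 9 were among the 1000 highest. Both are near the members' share of the whole list, 0.852%.

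At the top, with a score of 117, stood a peak on chromosome 12 (2333411 to 2334753) with a length of 1343 bp. It was annotated to the promoter of VIT_12s0028g01670 and centred 480 bp past the TSS of VIT_12s0028g01680. The annotated gene was nearest to 0 peaks and the nearest gene to this peak alone, so the strands stayed unresolved. The next, with a score of 102, covered 2414 bp on chromosome 3 (4021967 to 4024380) at a tandem pair on the plus strand. It spanned the TSS of VIT_03s0063g00460 at 4022554, 619 bp behind the centre, and that of VIT_03s0063g00470 at 4023999, 826 bp ahead of it. The files and the gene table used here give neither gene a name, so nothing can be said of what they encode.

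A peak on chromosome 18 (10305940 to 10309043) scored 93.7 and was the highest-scoring head-to-head member. It was 3104 bp long and covered both TSSs, at 10306686 on the minus strand and 10308212 on the plus strand, with its centre 805 bp from the annotated and 721 bp from the nearest. The same score was given to a peak on chromosome 3 (3890343 to 3892012), centred 421 bp inside the nearest gene and 663 bp upstream of the annotated gene's minus-strand TSS at 3890514. On chromosome 16 a peak from 20660823 to 20662425 scored 85.5, centred 220 bp upstream of the nearest and 425 bp upstream of the annotated TSS. On chromosome 17 (4715237 to 4716972, score 78.6) the annotated gene was an ENSRNA gene in tandem with the nearest gene, 128 bp upstream of whose TSS the peak was centred.

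The remaining members of the 10 differed in layout. The longest, of 5979 bp on the sequence named 11_random (229872 to 235850), scored 72.9 and covered tandem minus-strand TSSs 194 bp apart. On chromosome 14 a peak of 2499 bp (274380 to 276878) scored 70.2 at an unresolved pair. On chromosome 5 (6311428 to 6312705) a peak with a score of 68.1 lay 230 bp and 887 bp upstream of the TSSs of a tandem pair and reached the nearer TSS only. On chromosome 1 (22388402 to 22389921) a peak with a score of 64.0 covered both TSSs of a head-to-head pair 452 bp apart and was centred 92 bp past the nearest.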

How the data were processed

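A peak list was analysed, made by the authors from 1 anti-FLAG library and 1 control library. The submitters' processing notes name BWA, MACS2 and HOMER without roles or versions, and the sources used here name no genome build or gene annotation. Columns give, per the file headers, the position, score and annotation of a peak with its signed distance in bp to the nearest TSS and that gene's identifier. The scale of the score deposited by the authors is not named (lowest value 1.30), so it was used only to rank peaks and compare medians within the list. The ratios at crossed pairs are the exception and describe listed values only. No read counts were used, so the depth is unknown.

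The peak centre was the rounded-down mean of start and end; with it, the peaks of all 12847 genes with 2 or more peaks fitted 1 TSS each. Where a gene had fewer, every position that broke no rule of the list was kept, and a layout was called where 1 layout was left. Weighting on length used strata at the members' quantiles (10 strata, or 5 within a window of distance). Shares carry 95% Wilson intervals and medians 95% order-statistic intervals. Both treat peaks, which are not replicates, as units and cover counting error only. With 1 library per group no test was made.

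The members and comparisons were chosen with earlier results of these data known. The layout from 2 or more peaks per gene was the planned one, and the rules that settle further genes, the comparison inside the nearest gene and the crossed pairs were added after seeing the data. Peaks named are the 10 highest-scoring members and, per layout, those with the highest score and the shortest and longest distance between TSSs; the crossed pairs named were chosen after their values were seen. Of 20804 identifiers 0 matched the 29591 genes of the RefSeq table, so genes have no names here, and no genome sequence was used, so the planned gene lists and motif search were not run. Recovery was tested on simulated data. Software was Python 3.11.15 with pandas 2.3.3, numpy 2.4.6, matplotlib 3.10.9 and scipy 1.17.1.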

Additional observations from a re-analysis of the deposited data

How the results depend on the processing

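Of 64 alternative values, 41 stayed within the 95% interval of the value reported and 23 moved. For none of the moved values was the cause tested. With the highest-scoring quartile of the list, members made up 3.75% of promoter peaks, the length excess was 383 bp, 71.4% spanned both TSSs, 52.1% were centred on the gene side and 4.73% of annotated genes had another promoter peak. With the lowest-scoring quartile the length difference was -26.5 bp, 37.5% of the few resolved members were head-to-head, 0% spanned both TSSs, 79.2% were centred on the gene side and 24.5% of annotated genes had another promoter peak. With peaks under 1 kb, members made up 2.86%, the score difference from other promoter peaks was -1.70, the length difference -25 bp, the spanning share 15.8%, the share of annotated genes with another promoter peak 14.0%, the score excess inside the nearest gene 0.45 and the score deficit of crossed pairs -2.67. With VIT genes alone, members made up 3.02%. With 3 or more peaks per gene, 92.9% of 14 members were head-to-head. The deficit of crossed pairs was -3.32 with lone members weighted by length, -12.3 against lone members with another peak within 1 kb and -13.0 against lone head-to-head members. Without the crossed pairs, 48.3% of head-to-head centres lay between the TSSs. Numbered chromosomes alone moved 0 values. The score difference of 1.11 between members and other promoter peaks changed sign when weighted by length (-0.44) and among peaks under 1 kb (-1.70). No paired analysis was possible because anti-FLAG and control were 1 library each, and for the same reason none could be left out.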

Other observations

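Members lay somewhat closer to their neighbours than other promoter peaks did. Another peak lay within 1 kb of 253 members (60.4%, 95% Wilson interval 55.6 to 65.0%), against 53.4% of the other promoter peaks (52.5 to 54.3%) and 61.2% of the whole list. Of the members alone at their gene pair, 199 of 365 had such a neighbour, a share close to that of the other promoter peaks. Where a gene pair carried more than 1 member, these members lay within 1 kb of each other. Each of them thus counted as having a neighbour. All members with such a neighbour had a median score of 13.0 and those without 14.3, while among the other promoter peaks the medians were 14.3 and 11.3. The 13.0 includes the low-scoring crossed pairs. Lone members with such a neighbour had a median of 17.8 (15.0 to 20.0), above the 14.3 (11.1 to 17.0) of members without, with intervals that overlap. That order is the same as among the other promoter peaks. The nearest gene had no peak besides the member in 229 of 419 cases.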
